A study of Mus musculus with 6 samples.

Results

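Spock2, Bgn, Dcn, Vcan, Hspg2, Agrn, Sdc2, Sdc3 and Sdc4, 9 genes that encode proteoglycans of the vessel wall and of endothelium, were followed in RNA-seq libraries of cerebellar endothelial cells. They were taken as a list of gene names, and all 9 were found among the 14437 genes of the deposited table and passed the filter on low values, which left 14076 genes. The libraries, 3 of Ccm3 knock-out and 3 of wild-type, came from C57BL6 mice at postnatal day 9 and are each labelled as 1 mouse. Cells were released from the cerebellum with a dissociation kit for adult brain, and CD45 beads, which bind leukocytes, and CD31 beads, which bind endothelial cells, platelets and some leukocytes, were used in their isolation. How Ccm3 was knocked out, in which cells and from what age are details not given in the sources used here. Ccm3, also called Pdcd10, is mutated in familial cerebral cavernous malformations of human patients, and it had 230, 154 and 309 normalised reads in knock-out 1, 2 and 3, against 529, 522 and 689 in wild-type 1, 2 and 3.

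A proteoglycan is a core protein that carries long, sulfated sugar chains, heparan sulfate or chondroitin and dermatan sulfate. In brain vessels, perlecan (Hspg2) and agrin (Agrn) lie in the basement membrane, syndecans span the endothelial plasma membrane and belong to the glycocalyx, and biglycan (Bgn), decorin (Dcn) and versican (Vcan) are matrix proteoglycans of vessel walls and connective tissue. Spock2 encodes testican-2, a secreted proteoglycan of the SPARC family. The chains bind growth factors, chemokines and coagulation inhibitors, so core proteins and the enzymes that build or cut them are usually considered together.

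The libraries held 11075769 (knock-out 3) to 21142333 (wild-type 2) recovered reads. Values are normalised reads, that is, reads per gene divided by 1 size factor per library. Summed levels of 10 endothelial markers were 151842, 152196 and 124798 in knock-out 1, 2 and 3, against 141387, 141058 and 158969 in wild-type 1, 2 and 3. Markers of other cells were present in every library. The sums did not overlap for 10 astrocyte markers (3333 to 3879 in the knock-out, against 5575 to 6788 in wild-type libraries, with 1 of 10 tested markers, Gja1, fallen) or for 8 listed erythroid and platelet markers (5701 to 6873, against 10015 to 19808, with 4 of 8 tested markers fallen and Tubb1 risen). Wild-type 1 had no read of the Y-linked gene Ddx3y, and Xist, the RNA of the inactive X chromosome, had 41.5 normalised reads in knock-out 1 and 5.34 in wild-type 2. Xist and Ddx3y were both abundant in the other libraries, with 9397 and 473 in knock-out 2, 7802 and 948 in knock-out 3, and 10856 and 921 in wild-type 3. The labels name 1 mouse for each of these 3 libraries. Results are therefore also given, where they change, without each library and with the mean log2 level of 4 Y-linked genes as a covariate. The part of the astrocyte, erythroid and platelet markers in the results was not tested.

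Promoter windows of Spock2, Bgn and Agrn, the members that fell, and of Hspg2, the basement membrane member whose level was higher, are shown for comparison. The sequences are from RefSeq (GRCm38.p6), run from 5′ to 3′ on the gene's own strand, and cover 250 bases before and 50 bases after an annotated transcript start. They lie at chr10:60106007-60106306 (plus strand, Spock2), chrX:73483351-73483650 (plus strand, Bgn), chr4:156197439-156197738 (minus strand, Agrn) and chr4:137468553-137468852 (plus strand, Hspg2). Capitals mark every match, on either strand, to CACCC (a KLF-type motif), ACGTG (a hypoxia-type motif), CTTTGAT (a TCF-type motif) or TGGGAA (an RBPJ-type motif).
Spock2: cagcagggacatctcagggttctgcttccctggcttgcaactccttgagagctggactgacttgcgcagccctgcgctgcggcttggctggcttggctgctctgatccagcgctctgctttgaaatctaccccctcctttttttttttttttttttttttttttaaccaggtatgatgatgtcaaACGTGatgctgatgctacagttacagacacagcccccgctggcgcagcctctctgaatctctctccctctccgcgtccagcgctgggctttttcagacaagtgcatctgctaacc
Bgn: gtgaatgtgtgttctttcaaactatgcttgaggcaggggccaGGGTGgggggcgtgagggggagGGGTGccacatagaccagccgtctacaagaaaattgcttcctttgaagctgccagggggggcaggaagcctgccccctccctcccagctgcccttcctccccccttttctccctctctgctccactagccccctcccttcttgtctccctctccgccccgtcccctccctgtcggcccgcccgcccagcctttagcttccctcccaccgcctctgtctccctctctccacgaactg
Agrn: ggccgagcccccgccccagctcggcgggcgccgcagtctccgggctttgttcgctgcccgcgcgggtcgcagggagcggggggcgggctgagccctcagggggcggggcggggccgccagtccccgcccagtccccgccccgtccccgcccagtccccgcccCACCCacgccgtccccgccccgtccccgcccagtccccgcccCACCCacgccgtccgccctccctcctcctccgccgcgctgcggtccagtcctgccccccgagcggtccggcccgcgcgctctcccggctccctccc
Hspg2: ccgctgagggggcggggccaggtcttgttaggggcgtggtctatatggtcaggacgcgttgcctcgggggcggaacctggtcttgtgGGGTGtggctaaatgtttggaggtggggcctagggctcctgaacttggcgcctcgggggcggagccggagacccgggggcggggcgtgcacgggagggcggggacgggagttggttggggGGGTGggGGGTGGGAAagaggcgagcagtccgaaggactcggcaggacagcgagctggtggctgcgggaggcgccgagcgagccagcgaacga
CACCC or its reverse complement GGGTG was found 2 times in the Bgn window, 2 times in the Agrn window and 3 times in the Hspg2 window. Another RefSeq window of Agrn, at chr4:156186210-156186509 with 61.3% G and C and a CACCC match, is not shown. The windows of Vcan, Sdc3 and Sdc4, also not shown, each held CACCC or GGGTG too. The Spock2 window held no CACCC or GGGTG and a single ACGTG. In Hspg2 a TGGGAA overlapped the last GGGTG, and CTTTGAT was found in none of the 4 windows. Of 32817 RefSeq promoter windows of the same length, 57.5% held CACCC, 19.6% ACGTG, 3.73% CTTTGAT and 25.6% TGGGAA. The windows differ in base composition, with 52.3% G and C in Spock2, 63.7% in Bgn, 83.3% in Agrn and 70.3% in Hspg2, against a median of 52.7% over all windows. A match is a run of letters and was not tested for binding of any factor.

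Of the 9 genes, Spock2, Bgn and Agrn fell in the knock-out and 6 were not called. Rose, fell and called are used of genes whose adjusted p was below 0.05 in limma on log2(value + 1), with Benjamini-Hochberg adjustment over all 14076 genes tested. The median log2 change of the 9 genes was -0.40, against -0.01 over all genes tested. Over all genes, 6.24% were called, 2.64% as fallen and 3.6% as risen. The 9 genes were chosen with earlier results of these data known, so these shares are given as background only. No member was called as risen in this fit, in which Hspg2 and Sdc4 were higher in the knock-out at an unadjusted p below 0.05. Among the alternatives, edgeR on recovered reads called 0 rises, DESeq2 on recovered reads and limma with array weights called 2 each, and limma with the replicate number as a block, after quantile scaling or without knock-out 3 called 1 each. Knock-out and wild-type libraries did not overlap for 6 of the 9 genes, of which Spock2, Bgn, Agrn and Sdc3 were lower and Hspg2 and Sdc4 higher in the knock-out, where 25.5% of all genes tested did not overlap. In bulk RNA such as this, fewer cells of a type and less RNA per cell cannot be told apart.

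**Figure D1:**
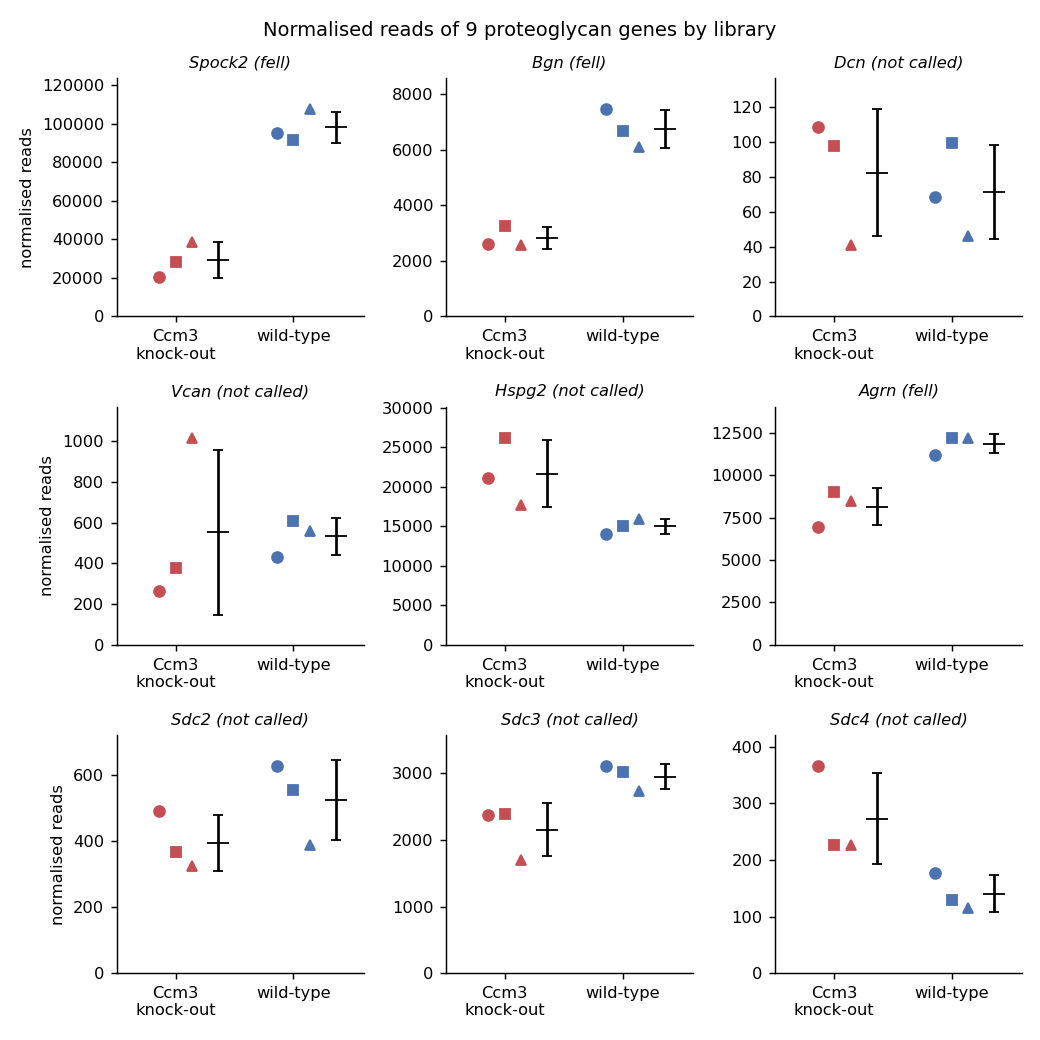
Normalised reads of the 9 proteoglycan genes (vertical axes from 0) in each Ccm3 knock-out library (red, left) and wild-type library (blue, right), with circle, square and triangle for replicates 1, 2 and 3, and the mean with SD beside them (black). The groups are apart for Spock2, Bgn, Hspg2, Agrn, Sdc3 and Sdc4 and overlap for Dcn, Vcan and Sdc2.

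Spock2 (ENSMUSG00000058297, chromosome 10, 60106219 to 60135198 of GRCm38, plus strand) was the most abundant of the 9 per kilobase of exon in each library. In normalised reads, Hspg2 (21141) was above Spock2 in knock-out 1. Spock2 had 20318, 28343 and 38809 normalised reads in knock-out 1, 2 and 3, against 95123, 91657 and 107377 in wild-type 1, 2 and 3. The groups lay far apart, and the knock-out libraries were the more scattered, with a coefficient of variation of 31.8% against 8.42% in wild-type. The mean was 29156 ± 9272 in the knock-out and 98052 ± 8259 in wild-type (SD, n = 3 each), which put the knock-out mean at 29.7% of the wild-type mean (log2 change -1.80, SE 0.23, limma adjusted p = 0.00408). In share of all recovered reads, Spock2 took 0.140%, 0.211% and 0.309% in knock-out 1, 2 and 3, against 0.703%, 0.649% and 0.730% in wild-type 1, 2 and 3. The widest 95% Wilson interval of these shares was 0.726% to 0.735% in wild-type 3, which covers counting error only. By level per kilobase of exon, Spock2 ranked 59, 43 and 31 among 14025 genes in knock-out 1, 2 and 3, against 14, 15 and 13 in wild-type 1, 2 and 3. Spock2 is also expressed by brain neurons, and summed levels of 9 listed cerebellar neuron markers overlapped between the groups, with 1655, 1801 and 4518 in knock-out 1, 2 and 3, against 2919, 3009 and 3174 in wild-type 1, 2 and 3. The log2 changes of all 9 neuron markers were below 0 (median -0.58), none of the 9 was called, and knock-out 3 alone had a sum above the wild-type libraries. The part of neurons in the Spock2 level was not tested. The log2 change of Spock2 lay between -2.03 (without knock-out 3) and -1.56 (without knock-out 1) over 20 alternative analyses, and Spock2 was called in each of the 20.

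Among the small leucine-rich proteoglycans of the extracellular matrix, Bgn fell and Dcn was not called. Bgn (chromosome X, 73483602 to 73495933, plus strand) encodes biglycan, which binds collagen and growth factors of the TGF-beta family and in soluble form is a ligand of Toll-like receptors. Its level was 2604, 3273 and 2592 normalised reads in knock-out 1, 2 and 3, against 7457, 6669 and 6096 in wild-type 1, 2 and 3. All 3 knock-out libraries lay close together and below all 3 wild-type libraries. The mean was 2823 ± 390 in the knock-out and 6741 ± 683 in wild-type (SD, n = 3 each), with a fold of 0.42 (95% interval 0.34 to 0.51, limma adjusted p = 0.00184). Bgn is X-linked, and its log2 change of -1.26 was -1.18 (adjusted p = 0.00750) once the Y-linked level was a covariate. Bgn was called in all 20 alternatives, with log2 changes from -1.37 to -1.17.

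Bgn is also a gene of pericytes, smooth muscle cells and fibroblasts. Summed levels of 13 listed pericyte and smooth muscle markers overlapped between the groups, with 53597, 56391 and 43164 normalised reads in knock-out 1, 2 and 3, against 82871, 69632 and 42080 in wild-type 1, 2 and 3. None of the 13 was listed at 0 in a library. Summed levels of 8 listed fibroblast and meningeal markers ranged from 1797 to 2873 in the knock-out, against 2207 to 4274 in wild-type. The log2 changes of 8 of the 13 mural and of 6 of the 8 fibroblast and meningeal markers were below 0, and none was called. The mural and fibroblast levels used as covariates were mean log2 levels of the markers, not these sums. With the mural level in the model the log2 change of Bgn was -1.17 (adjusted p = 0.00384), and with the fibroblast level it was -1.19 (adjusted p = 0.00363). With 6 libraries, these fits cannot tell fewer such cells from less Bgn RNA per cell. The part of such cells in the Bgn level was not tested.

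Dcn (chromosome 10, 97479609 to 97518143, plus strand) encodes decorin, a collagen-binding proteoglycan of fibroblasts. It was the lowest of the 9 genes, with 108, 97.9 and 40.9 normalised reads in knock-out 1, 2 and 3, against 68.3, 99.5 and 46.0 in wild-type 1, 2 and 3. These values rest on 36 to 150 reads per library. Knock-out 3 and wild-type 3 were the lowest libraries of their groups, the groups overlapped, and the fold was 1.11 with a 95% interval of 0.57 to 2.17 (adjusted p = 0.898). The direction of Dcn was not stable, with a log2 change of 0.59 without knock-out 3 and of -0.12 without wild-type 3. In log2 ratio of levels per kilobase of exon within a library, Bgn stood above Dcn by 4.52, 5.00 and 5.92 in knock-out 1, 2 and 3, against 6.71, 6.00 and 6.99 in wild-type 1, 2 and 3. This pair was chosen after its values were seen, so no test is given.

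Vcan, which encodes the large hyaluronan-binding chondroitin sulfate proteoglycan versican, was not called. The gene (chromosome 13, 89655312 to 89742509, minus strand) had 266, 376 and 1015 normalised reads in knock-out 1, 2 and 3, against 434, 609 and 557 in wild-type 1, 2 and 3. Knock-out 1 and 2 lay below every wild-type library and knock-out 3 above every one. The mean was 552 ± 404 in the knock-out and 533 ± 90.0 in wild-type (SD, n = 3 each), with a fold of 0.88 (95% interval 0.45 to 1.75, adjusted p = 0.884). Without knock-out 3 the log2 change of Vcan was -0.74 in place of -0.18, with an adjusted p of 0.0793, and without knock-out 1 it was 0.23. It was 0.05 with DESeq2 and 0.04 with edgeR. Vcan is also a gene of oligodendrocyte precursors, and summed levels of 10 oligodendrocyte lineage markers were 2885, 1641 and 5334 in knock-out 1, 2 and 3, against 2694, 2470 and 10455 in wild-type 1, 2 and 3. The log2 changes of all 10 were below 0 (median -0.36), and none was called. Knock-out 3 and wild-type 3 held the most of these markers, and Vcan in wild-type 3 lay between the other wild-type libraries. The part of these cells in the Vcan level was not tested.

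Of the heparan sulfate proteoglycans of the basement membrane, Agrn fell, while Hspg2 had a higher level that was not called. Agrn (chromosome 4, 156165290 to 156197488, minus strand) encodes agrin, which binds laminin and dystroglycan and is known in brain for its enrichment in the basement membrane of barrier-forming vessels. Agrn had 6928, 8987 and 8495 normalised reads in knock-out 1, 2 and 3, against 11205, 12183 and 12181 in wild-type 1, 2 and 3, and the groups did not overlap. The mean was 8137 ± 1075 in the knock-out and 11856 ± 564 in wild-type (SD, n = 3 each), with a fold of 0.68 (95% interval 0.56 to 0.83, limma adjusted p = 0.0336). The fall of Agrn was called in 13 of 20 alternatives. It was lost without knock-out 1 (0.0567) or wild-type 1 (0.0889), 2 (0.154) or 3 (0.113), and with the mural level (0.0699), fibroblast level (0.0599) or Y-linked level (0.0897) in the model (adjusted p in brackets). Its log2 change stayed between -0.63 and -0.44 throughout.

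Hspg2 (chromosome 4, 137468769 to 137570630, plus strand) encodes perlecan, which binds laminin, nidogen and fibroblast growth factors. Hspg2 had 21141, 26200 and 17753 normalised reads in knock-out 1, 2 and 3, against 14021, 15060 and 15928 in wild-type 1, 2 and 3. All 3 knock-out libraries lay above all 3 wild-type libraries, with the smallest gap between knock-out 3 and wild-type 3. The mean was 21698 ± 4251 in the knock-out and 15003 ± 955 in wild-type (SD, n = 3 each), a fold of 1.43 (95% interval 1.12 to 1.82) that was not called (adjusted p = 0.0976). Hspg2 was called with DESeq2 (0.00605), without knock-out 3 (0.0291), with array weights (0.0309) and after quantile scaling (0.0482). The log2 ratio of Hspg2 to Agrn in level per kilobase was 0.99, 0.92 and 0.44 in knock-out 1, 2 and 3, against -0.30, -0.32 and -0.24 in wild-type 1, 2 and 3. By this measure Hspg2 stood above Agrn in each knock-out library and below it in each wild-type library. The sign of the ratio depends on the exon lengths used, since in normalised reads Hspg2 was above Agrn in each library of both groups. The ratio was chosen after the values were seen and carries no test.

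**Figure D2:**
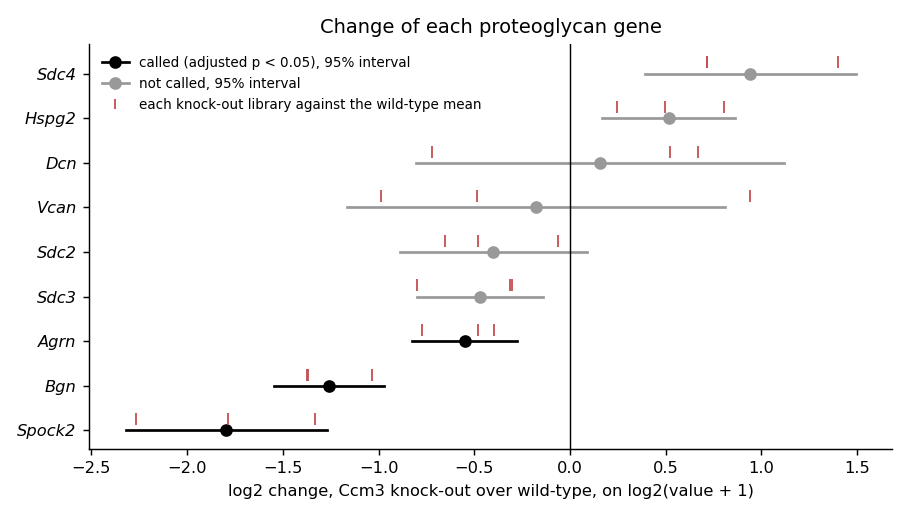
Log2 change of each gene in the Ccm3 knock-out over wild-type on the log2(value + 1) scale (point) with its 95% interval (line), black where called and grey where not, and each knock-out library against the wild-type mean (red ticks). Spock2 (-1.80), Bgn (-1.26) and Agrn (-0.55) were called, and the intervals of Hspg2, Sdc3 and Sdc4 also leave out 0 before adjustment.

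The syndecans, transmembrane proteoglycans whose short cytoplasmic tails bind adaptors such as syntenin (Sdcbp), were not called with the settings given above, and their levels differed in direction. Sdc4, a co-receptor of integrins at focal adhesions, had 365, 227 and 227 normalised reads in knock-out 1, 2 and 3, against 177, 129 and 115 in wild-type 1, 2 and 3. The groups did not overlap, and knock-out 1 stood above the other knock-out libraries. The fold was 1.92 (95% interval 1.31 to 2.82, adjusted p = 0.0601). Sdc4 was called with the replicate number as a block (0.0158), with array weights (0.0304) and with DESeq2 (0.00529). The gene lies on chromosome 2, 164424247 to 164443887, minus strand.

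Sdc3 (chromosome 4, 130792537 to 130826319, plus strand), a syndecan best known from the nervous system, had 2374, 2391 and 1696 normalised reads in knock-out 1, 2 and 3, against 3104, 3016 and 2736 in wild-type 1, 2 and 3. Every knock-out library was below every wild-type library, and the fold was 0.72 (95% interval 0.57 to 0.91, adjusted p = 0.111). Sdc3 was called with array weights (0.0426) and with DESeq2 (0.0368). Its exons overlap 2 antisense genes, Gm12970 and Gm26716, neither of which the table lists, and the sources used here do not say whether reads were counted by strand. Sdc2 (chromosome 15, 32920723 to 33034935, plus strand), a syndecan of endothelial and mesenchymal cells, had 490, 367 and 326 normalised reads in knock-out 1, 2 and 3, against 625, 555 and 389 in wild-type 1, 2 and 3. Its groups overlapped, since knock-out 1 was above wild-type 3 (fold 0.76, 95% interval 0.54 to 1.06, adjusted p = 0.365).

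Within each library the balance among syndecans can be read as a log2 ratio of levels per kilobase. Sdc4 against Sdc2 gave 0.04, -0.22 and -0.05 in knock-out 1, 2 and 3, against -1.35, -1.63 and -1.29 in wild-type 1, 2 and 3. Sdc4 against Sdc3 gave -1.47, -2.16 and -1.67 in knock-out 1, 2 and 3, against -2.90, -3.31 and -3.34 in wild-type 1, 2 and 3. The ratio of Sdc3 to Sdc2 overlapped between the groups, with 1.51, 1.94 and 1.62 in knock-out 1, 2 and 3, against 1.55, 1.68 and 2.05 in wild-type 1, 2 and 3. The pairs were formed after the values were seen, and no test is given.

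**Figure D3:**
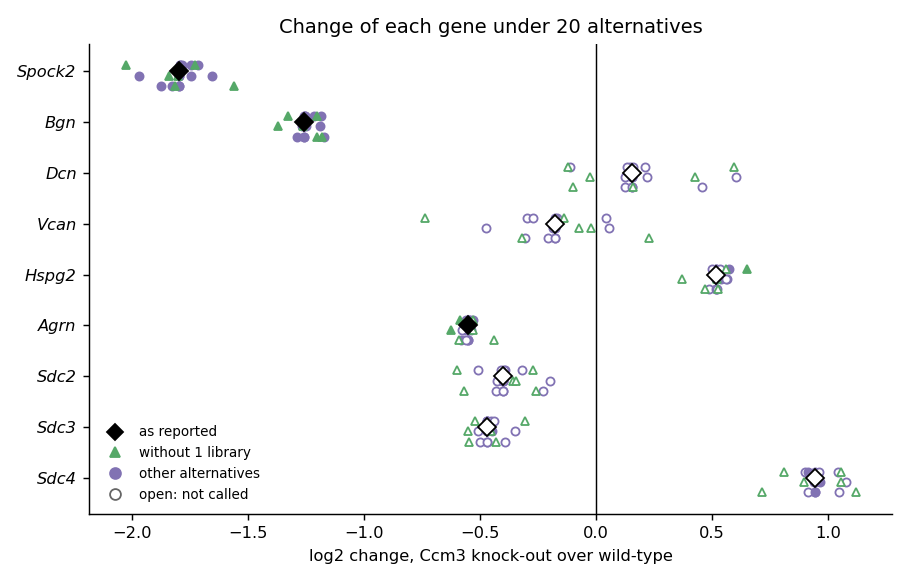
Log2 change of each gene in the Ccm3 knock-out over wild-type as reported (diamond), without 1 library (triangle) and under the other alternatives (circle), filled where the adjusted p was below 0.05. Spock2 and Bgn were called under all 20 alternatives and Agrn under 13, while Dcn and Vcan lie on both sides of 0.

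Levels can be compared between genes only per length, here per kilobase of exon over all annotated transcripts of GENCODE M21. Such a length can exceed that of the transcripts present. The order of the genes, their overlaps and their shares of a sum depend on the lengths used. Per kilobase, the mean level in the knock-out was 5270 for Spock2, 1517 for Hspg2, 876 for Agrn, 463 for Bgn, 360 for Sdc3, 112 for Sdc2, 107 for Sdc4, 38.2 for Vcan and 14.1 for Dcn. In wild-type libraries it was 17721 for Spock2, 1277 for Agrn, 1105 for Bgn, 1049 for Hspg2, 493 for Sdc3, 148 for Sdc2, 55.1 for Sdc4, 36.9 for Vcan and 12.2 for Dcn. Hspg2 held the second place in the knock-out, with 1241 to 1831 per kilobase against 746 to 968 for Agrn. In wild-type libraries the levels of Bgn (1000 to 1223) overlapped those of both Agrn (1207 to 1312) and Hspg2 (980 to 1113). Sdc2 and Sdc4 overlapped in the knock-out (92.4 to 139 and 89.1 to 143) and not in wild-type libraries (110 to 177 and 45.0 to 69.4). Vcan and Dcn overlapped in the knock-out (18.4 to 70.2 and 7.0 to 18.6) and not in wild-type libraries (30.0 to 42.1 and 7.89 to 17.0).

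Summed per kilobase over the 9 genes, the level was 7039, 9094 and 10137 in knock-out 1, 2 and 3, against 21408, 20794 and 23490 in wild-type 1, 2 and 3. The knock-out sum was 40.0% of the wild-type sum. Without Spock2 the sum was 3367, 3971 and 3123 in knock-out 1, 2 and 3, against 4216, 4229 and 4083 in wild-type 1, 2 and 3, or 83.5% of wild-type. Spock2 made up 52.2%, 56.3% and 69.2% of the sum in knock-out 1, 2 and 3, against 80.3%, 79.7% and 82.6% in wild-type 1, 2 and 3. The share of Hspg2 was 20.99%, 20.1% and 12.2% in knock-out 1, 2 and 3, against 4.58%, 5.06% and 4.74% in wild-type 1, 2 and 3. Bgn made up 5.39% ± 1.04 of the sum in the knock-out and 5.07% ± 0.75 in wild-type (SD, n = 3 each), and these shares overlapped.

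**Figure D4:**
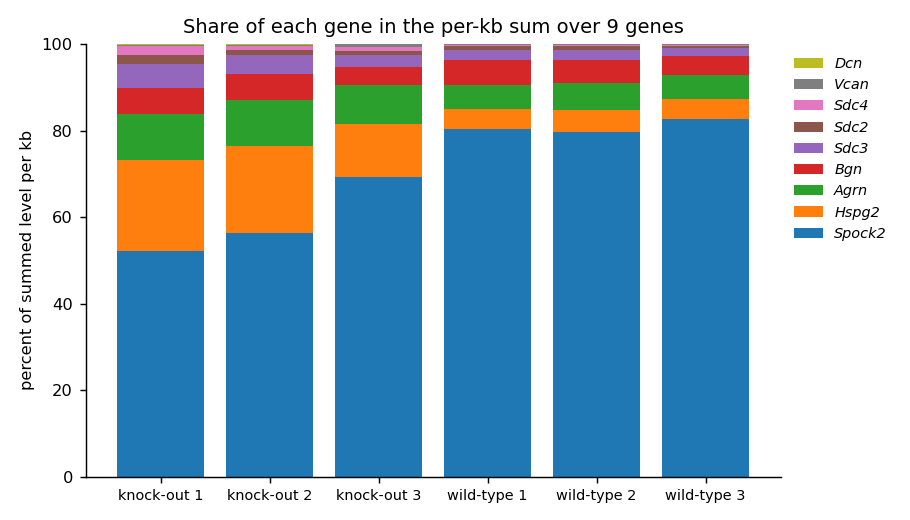
Share of each gene (colours) in the level per kilobase of exon summed over the 9 genes, in percent, for the 3 knock-out libraries (left) and the 3 wild-type libraries (right). Spock2 takes 52.2% to 69.2% in the knock-out and 79.7% to 82.6% in wild-type libraries, and Hspg2 takes the next largest part in the knock-out.

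For each member that fell, the 3 genes with the most similar pattern of log2(value + 1) over the 6 libraries were taken among 7037 genes with a mean above the median, as a description. For Spock2 they were the amino acid transporter Slc43a2 (Pearson r 0.998), Tox3 (r 0.998) and Lrrn3 (r 0.998). For Bgn they were the ribosomal protein gene Rpl27a (r 0.999), Nectin1 (r 0.997) and Zfp362 (r 0.996). For Agrn they were the netrin receptor Unc5b (r 0.997), the secreted protease Htra1 (r 0.995) and Steap3 (r 0.993). These correlations over 6 libraries share the difference between the groups, and all 9 genes had a lower level in the knock-out, with log2 changes from -2.61 (Lrrn3) to -0.48 (Rpl27a).

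Of tested genes for the chain linker and donors, 6.67% were called, for heparan sulfate 6.25% and for chondroitin and dermatan sulfate 13.3%. Over all genes 6.24% were called. The lists used here hold 137 other genes of proteoglycan biology, of which 115 were tested, 11 rose and 6 fell, or 14.8% called against 6.24% of all genes. The lists were chosen with earlier results of these data known, so these shares are no measure of enrichment. Their median log2 change was -0.02, against -0.01 over all genes. Of 15 tested genes of the chain linker and of nucleotide and sulfate donors, Papss2, which makes the sulfate donor PAPS, rose (fold 1.65, 95% interval 1.31 to 2.08, adjusted p = 0.0270), and 14 were not called. Of 16 tested genes of heparan sulfate synthesis and editing, the glycosyltransferase gene Extl3 fell (fold 0.70, 95% interval 0.61 to 0.81, adjusted p = 0.0133), and 15 were not called. Extl3 had 2239, 2445 and 2340 normalised reads in knock-out 1, 2 and 3, against 3143, 3361 and 3469 in wild-type 1, 2 and 3. Of 15 tested genes of chondroitin and dermatan sulfate synthesis, Chst11, a chondroitin 4-O-sulfotransferase, and Csgalnact1, which starts chondroitin chains, rose 1.597-fold (1.33 to 1.92) and 1.64-fold (1.34 to 2.00), and 13 were not called. Chst11 had 1904, 1955 and 1548 normalised reads in knock-out 1, 2 and 3, against 1073, 1085 and 1215 in wild-type 1, 2 and 3. The medians of these 3 lists were 0.0038, -0.03 and 0.02 on the log2 scale. Papss2 lost its call in 5 of the 6 analyses without 1 library (all but knock-out 3, highest adjusted p 0.115), and Csgalnact1 (0.0540 to 0.0710) in those without wild-type 1, 2 or 3 or knock-out 2. Chst11 lost it without wild-type 1 or 2 or knock-out 2 (0.0550 to 0.0817), and Extl3 without wild-type 2 or 3 (0.0873 and 0.0617). Papss2 (adjusted p 0.0587), Csgalnact1 (0.0568) and Chst11 (0.0510) also lost their calls once the Y-linked level was a covariate. The log2 changes of these genes were then 0.77, 0.69 and 0.66, against 0.72, 0.71 and 0.68 as reported.

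Of 26 tested genes of other proteoglycan core proteins, including proteins that carry a chain on part of their molecules, 1 rose, 3 fell and 22 were not called (median log2 change -0.20). Thbd, the anticoagulant receptor thrombomodulin, rose 3.32-fold (2.52 to 4.36, adjusted p = 0.00184). Col18a1, a basement membrane collagen with heparan sulfate chains and the source of endostatin, had 1338, 1880 and 1512 normalised reads in knock-out 1, 2 and 3, against 3302, 3225 and 3179 in wild-type 1, 2 and 3 (fold 0.48, adjusted p = 0.00334). Nrp1, a co-receptor of VEGF and semaphorins, fell with a fold of 0.56 (0.47 to 0.66), and Tgfbr3, the TGF-beta co-receptor betaglycan, with a fold of 0.58 (0.48 to 0.69). These 4 genes were called in each analysis without 1 library.

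Among 13 tested genes of proteases that cut core proteins and their inhibitor Timp3, 5 rose and 8 were not called (median log2 change 0.39). Adamts1, Adamts9 and Adamts4, which cleave versican and aggrecan, rose 2.80-fold, 2.70-fold and 2.34-fold, and were called in each analysis without 1 library. Timp3, which inhibits Adamts proteases, had 6708, 3095 and 2601 normalised reads in knock-out 1, 2 and 3, against 1178, 1153 and 1433 in wild-type 1, 2 and 3 (fold 3.03, 95% interval 1.84 to 4.98, adjusted p = 0.0232). Adamts8 rose 2.64-fold (1.66 to 4.20). Timp3 lost its call without wild-type 1, 2 or 3 or knock-out 2 (adjusted p 0.0552 to 0.101) and with the mural level (0.0571) or the Y-linked level (0.0681) in the model, and Adamts8 without wild-type 2 or 3 or knock-out 1 or 2 (0.0748 to 0.104).

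Of 12 tested genes of hyaluronan metabolism and versican binding, Fbln1 and Fbln2, which encode fibulins that bind versican, fell (folds 0.58 and 0.51), Lyve1, a hyaluronan receptor of lymphatic endothelium and some macrophages, rose, and 9 were not called (median log2 change -0.25). Lyve1 was low, with 33.0, 24.8 and 34.1 normalised reads in knock-out 1, 2 and 3, against 5.94, 14.7 and 7.22 in wild-type 1, 2 and 3, and its call was lost in each of the 6 analyses without 1 library (adjusted p 0.0543 to 0.153) and with the replicate number as a block (0.0722). It was also lost with the Y-linked level (0.125), the mural level (0.0851) or the fibroblast level (0.0717) in the model, with array weights (0.154), with edgeR (0.0560) and after upper-quartile scaling (0.0502). Fbln2 lost its call in 5 of the 6, all but the analysis without wild-type 1 (0.0704 to 0.157), and Fbln1 without wild-type 1 or 2 or knock-out 1 (0.05 to 0.0883) and with the fibroblast level (0.0503) or the Y-linked level (0.0555) in the model. Of 18 tested genes of receptors and adaptors of the 9 proteoglycans, Tlr4, a receptor of soluble biglycan, rose 2.16-fold (1.59 to 2.93, adjusted p = 0.0143), and 17 were not called (median log2 change 0.05). Tlr4 lost its call without wild-type 1, 2 or 3 (0.0509 to 0.0622). The syndecan adaptor Sdcbp had 3182, 2841 and 2883 normalised reads in knock-out 1, 2 and 3, against 2441, 2564 and 2804 in wild-type 1, 2 and 3 (fold 1.14, adjusted p = 0.329).

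**Figure D5:**
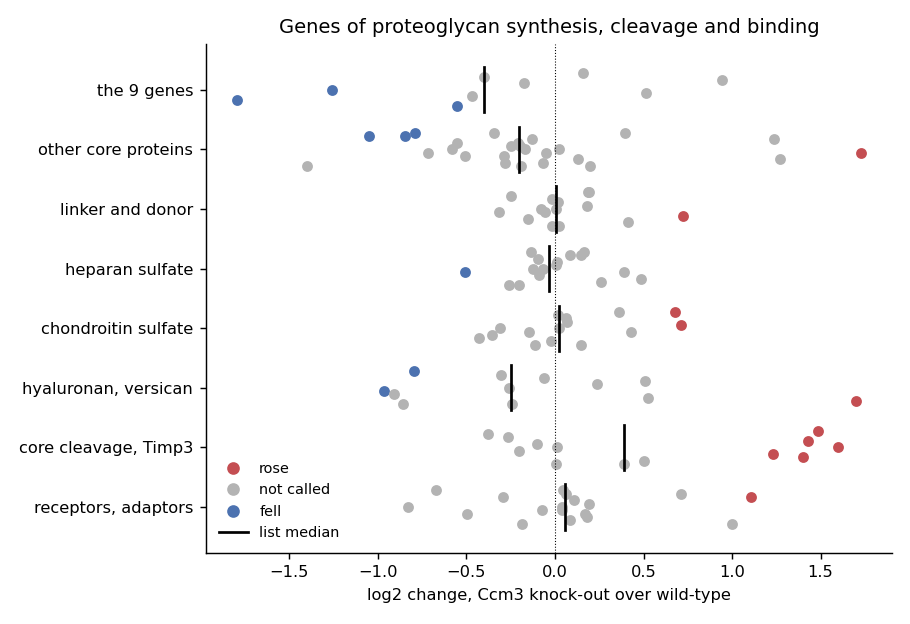
Log2 change in the Ccm3 knock-out over wild-type of every tested gene of the 9 proteoglycans and of 7 related lists (1 point per gene, red for risen, blue for fallen, grey for not called), with the median of each list (black bar). The 9 proteoglycans have the lowest median (-0.40) and the cleavage list the highest (0.39) of the lists drawn. Lists of cell type markers are not drawn, and their medians ran from -1.09 (erythroid and platelet) to 0.02 (endothelial).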

How the data were processed

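Per the labels' protocols, total RNA of bead-isolated cells was depleted of ribosomal RNA and made into stranded libraries. Per the submitters' processing notes, the tools were Trim Galore, STAR 2.5.3a and DESeq2, with the GRCm38 build. Not given in the sources used here are the counter, annotation, gene filter and strand setting. The deposited signal per gene is a read count scaled by the authors with a size factor for each library: within each library 100% of values were whole multiples of 1 step (tolerance 0.01 of a read), so whole reads were recovered, and 3 reads correspond to a value of 1.96 to 3.41. No listed gene had under 12 reads over the 6 libraries. Replicates differed beyond sampling noise (chi-square per degree of freedom 13.9 to 57.5). The labels name 1 mouse per library. Sex-linked genes set some libraries apart, such as wild-type 1 and wild-type 2, while Xist and Ddx3y were both abundant in knock-out 2, knock-out 3 and wild-type 3. Whether each library came from 1 separate mouse was not tested, so p-values measure the spread between these libraries.

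Genes reaching a value of 10 in 3 or more libraries were tested with limma 3.58.1 in R 4.3.3 on log2(value + 1), with a mean-variance trend, two-sided, without a block, and fold changes on this scale understate those of low genes. DESeq2 1.42.0 and edgeR 4.0.16 were run on recovered reads as alternatives, as were other pseudocounts, filters, scalings, array weights, covariates, a replicate block and fits without each library. The procedure was tested on simulated counts. These had the same dispersion for every gene and no differences in sex or cell mixture, so the simulation does not cover such differences. Deviations from group means correlated by 0.10, 0.11 and 0.19 between same-numbered libraries of the 2 groups, the sole sign of pairing, and 2 of the 3 knock-out libraries correlated more with a wild-type library of another number. Positions and exon lengths are from GENCODE M21 (GRCm38), which held 14381 of the 14437 listed genes. RefSeq promoter windows were found for 7 members, not for Dcn and Sdc2. Named beside the members are up to 4 called genes of each list in each direction and Adamts8 and Sdcbp, which were added after their values were seen. Members and lists were chosen with earlier results of these data known.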

Additional observations from a re-analysis of the deposited data

How the results depend on the processing

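Over 20 alternatives, the calls of Spock2 and Bgn held throughout and no called member changed direction. Of the 9 members, 3 changed as reported, 6 with array weights and 6 with DESeq2, and 2 to 4 in the analyses without 1 library. Over all genes, 879 changed as reported, 1217 with array weights, 1373 with DESeq2, 897 with edgeR, 457 with the Y-linked level in the model, and 283 to 1032 without 1 library (399, 283 and 434 without wild-type 1, 2 and 3, and 467 without knock-out 2). Of the 115 related genes, 17 changed as reported, 11 with the Y-linked level, and 7 to 18 without 1 library (7 without wild-type 2, and 10 each when knock-out 2, wild-type 1 or wild-type 3 was left out). The replicate number as a block gave 769 changed genes over all genes and 4 members, and among the members it changed no call but that of Sdc4. Scalings moved the median log2 change of all genes by at most -0.03. Dcn kept its sign in 16 and Vcan in 17 of 20 alternatives. The causes of these shifts were not tested. With 36 to 150 reads per library, Dcn is the member most limited by depth.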
